A study of Danio rerio with 24 samples.

Results

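The 45 genes described here are expressed by, or signal to, the endothelial cells that line the blood and lymph vessels of the zebrafish. They were chosen as a list of symbols, with earlier results of these data known, and matched to the authors' gene names. All 45 were found in the main table of 26347 genes, and all 45 were among the 20907 genes that passed the filter on low counts. RNA of whole embryos was sequenced from 4 groups with 4 libraries each: WT and slincRosu3 embryos, each as controls and with TCDD. TCDD (2,3,7,8-tetrachlorodibenzo-p-dioxin) is a dioxin that activates AHR, the aryl hydrocarbon receptor, and was given at 1 ng/mL from 6 hours post fertilization (hpf) until collection at 48 hpf. The controls are named DMSO, the usual solvent, in the header of the authors' table of comparisons. The slincRosu3 line carries a CRISPR-Cas9 mutation in slincR, a long intergenic noncoding RNA of the sox9b locus, and slincR itself was not analysed here. Embryos per library, clutch and batch are not given, so line and clutch cannot be told apart, and p-values measure only the spread between these libraries. The BigD line of the labels was not analysed here.

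Endothelial cells form under transcription factors of the Etv2, Tal1, Fli1, Erg and SoxF kinds and grow toward vascular endothelial growth factor (VEGF), which they sense through receptor tyrosine kinases and neuropilins. Angiopoietins act on the Tie receptors and govern vessel stability, apelin and adrenomedullin are peptide ligands of vessel receptors, and an ephrin and its receptor mark arteries and veins. In zebrafish, endothelial cells of veins and lymph vessels also act as scavengers, taking up waste from the blood through stabilins and the mannose receptor. Dioxin exposure is known to disturb the heart and circulation of fish embryos.

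Total counts ran from 17275522 to 20100736 per library. The AHR target cyp1a, the check of the treatment labels, ranged from 2.749 to 5.322 CPM (counts scaled with TMM to a common library total) in the 8 controls. With TCDD it ranged from 856.2 to 1231 CPM in WT and from 1655 to 1931 CPM in slincRosu3, without overlap between the lines. The first principal component of all genes held 29.8% of the variance, and 4 libraries stood apart on it, WT control 4 (score 56.19), slincRosu3 control 4 (53.42), WT TCDD 4 (35.49) and WT TCDD 3 (32.71). The next highest score was 18.06, in WT control 1. Where a call changed without these 4 libraries, that value is given beside it. Leaving them out keeps only replicates 1 and 2 of WT TCDD and replicates 1 to 3 of each control group. No vessel gene was at 0 in any library, and the lowest count was 3. The median coefficient of variation of the 45 genes over the libraries of a group was 13.4% in WT control, 13.1% in WT TCDD, 12.2% in slincRosu3 control and 8.23% in slincRosu3 TCDD, against 17.9%, 16.9%, 15.1% and 11.1% for all genes. Values in 4 groups are given below in this same order (WT control, WT TCDD, then slincRosu3 without and with TCDD), and values of single libraries in the order of replicates 1 to 4. In bulk RNA of whole embryos, the cells that express a gene are not resolved, so a level need not come from endothelium alone. Fewer cells of a type and less RNA per cell cannot be told apart either.

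The first question was what TCDD did to vessel genes at 48 hpf. Averaged over both lines, the scavenger receptor gene stab2 and the vesicle gene plvapb fell with TCDD, by 1.38-fold and 1.36-fold. The other plvap gene, plvapa, rose 2.26-fold, the adrenomedullin gene admb 1.66-fold and the thrombospondin gene thbs1b 1.39-fold. Among general endothelial genes, cdh5, kdrl, fli1a and tie1 did not pass the test, with averaged log2 fold changes of -0.01, -0.01, 0.01 and 0.12. Other endothelial genes that did not pass had larger estimates in either direction, negative for clec14a and positive for pecam1, esama, egfl7 and erg. Thus 3 of 45 vessel genes rose and 2 fell in the averaged comparison by edgeR's quasi-likelihood F test at an adjusted p under 0.05, where 0.804% of all genes were called in either direction, 0.722% higher and 0.0813% lower. Within WT the test called 1 vessel gene, stab2, where it called 0.325% of all genes and 0.0287% as lower. Within slincRosu3 it called 1, plvapb, where it called 0.383% and again 0.0287% as lower. DESeq2 called 5 vessel genes in WT (admb, plvapa, plvapb, stab2 and thbs1b) and 6 in slincRosu3 (the same without stab2, with adma and etv2), where it called 147 and 160 of all genes. In WT the authors' deposited table puts the 5 genes that DESeq2 called at adjusted p from 0.00126 (stab2) to 0.0312 (admb). That table is the authors' own result from this series, whose processing notes name DESeq2, so it is not independent support. The median log2 fold change of the 45 genes was 0.02 in WT, 0.02 in slincRosu3 and 0.01 averaged, against 0.01, -0.01 and -0.00 for all genes. Negative changes were seen for 20, 20 and 22 of the 45 genes in these comparisons, against 48.4%, 51.5% and 50.3% of all genes.

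**Figure D1:**
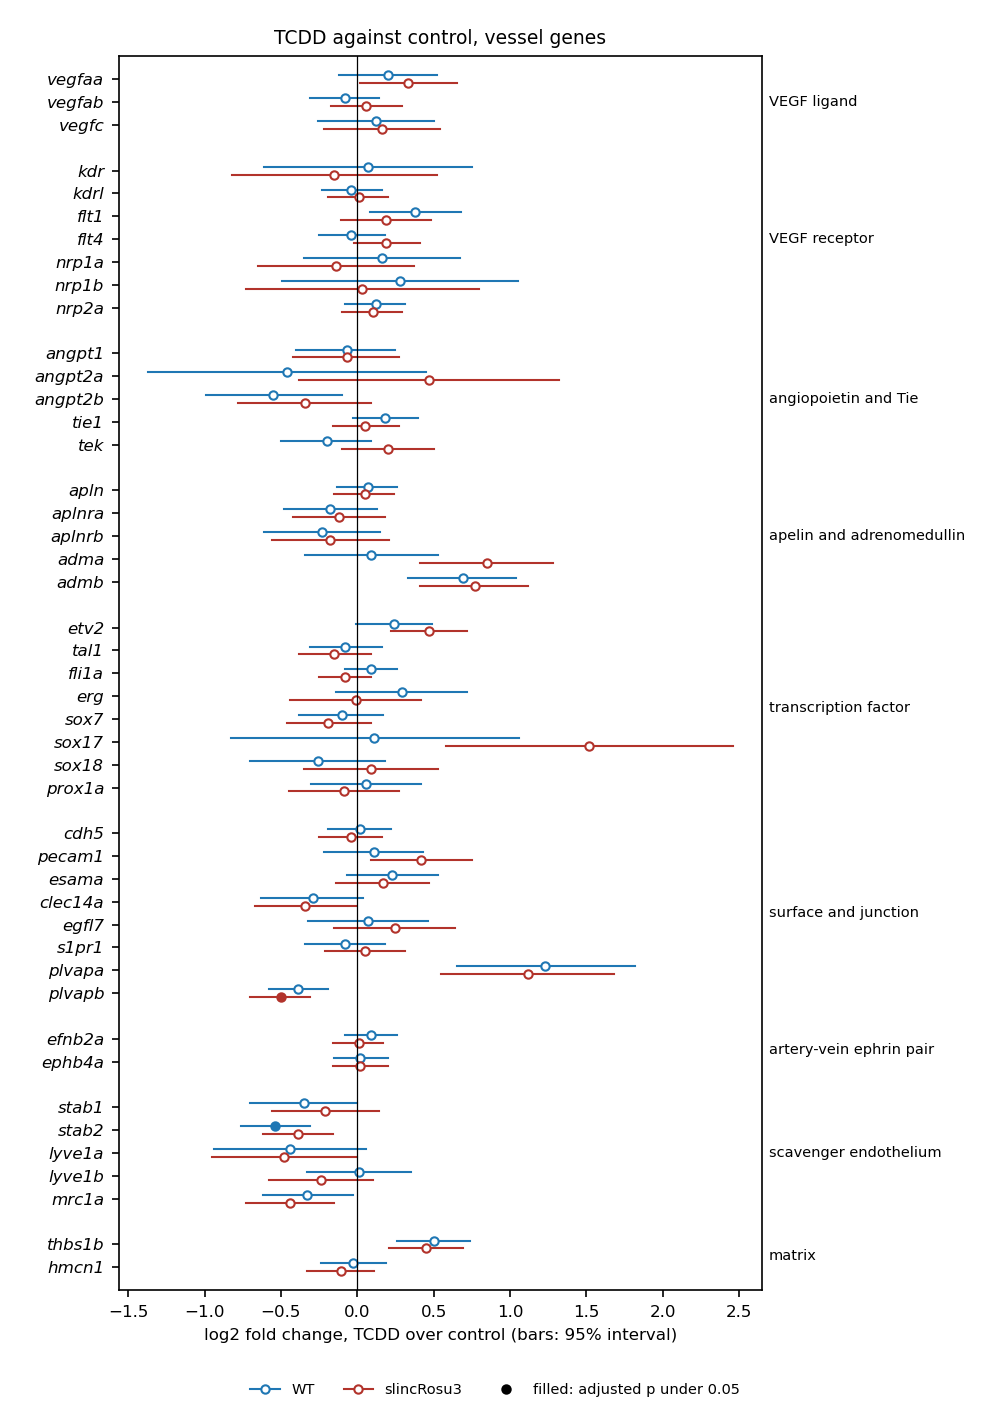
Log2 fold change of TCDD over control (horizontal axis) for each of the 45 vessel genes, grouped by role, in WT (blue) and slincRosu3 (red). Points are estimates of the edgeR fit and bars their 95% intervals, and the 2 filled points are the calls within a line, stab2 in WT (-0.54) and plvapb in slincRosu3 (-0.50). Of the genes called in the averaged comparison, plvapa, admb and thbs1b have intervals above 0 and stab2 and plvapb below 0 in both lines.

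Genes with an unadjusted p under 0.05 were also counted. The 45 genes were chosen with earlier results of these data known, so an excess over all genes is not independent support. In WT this held for 4 vessel genes with higher and 4 with lower values, or 17.8% of the 45, against 8.02% of all genes. In slincRosu3 it held for 8 higher and 5 lower, or 28.9%, against 4.86%. Averaged over the lines it held for 9 higher and 7 lower, or 35.6%, against 7.72%. The exposed and control libraries did not overlap for 4 higher and 2 lower vessel genes in WT, where 2.03% of all genes were apart with higher and 1.01% with lower values. In slincRosu3 this was so for 8 higher and 5 lower vessel genes, against 3.13% and 1.59% of all genes.

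The scavenger genes encode stabilin 1 and 2 (stab1, stab2), the mannose receptor Mrc1a and the hyaluronan receptors Lyve1a and Lyve1b, which in zebrafish mark veins and lymph vessels. One of the 5 fell in the averaged comparison, and the log2 fold changes of all 5 were negative in it, with a median of -0.38 and a range from -0.46 to -0.11. Within WT 4 of 5 were negative (median -0.35) and within slincRosu3 5 of 5 (median -0.39).

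The fall was best resolved for stab2 (ENSDARG00000045748). Its level was 31.69, 29.33, 25.33 and 29.31 CPM in WT control and 19.43, 22.55, 21.27 and 16.53 CPM in WT TCDD. In slincRosu3 it was 26.06, 31.48, 25.94 and 28.87 CPM in controls and 19.33, 23.19, 22 and 21.15 CPM with TCDD. Every exposed library was lower than every control library, in each line and over all 16 libraries. The means were 28.9 ± 2.64, 19.9 ± 2.61, 28.1 ± 2.64 and 21.4 ± 1.62 CPM (SD, n = 4). By edgeR the log2 fold change was -0.54 in WT (SE 0.109, 95% interval -0.76 to -0.31, adjusted p = 0.0419), -0.39 in slincRosu3 (SE 0.108, adjusted p = 0.243) and -0.46 averaged (SE 0.0767, adjusted p = 0.00374). The averaged value corresponds to a level 1.38-fold lower. The WT call was lost in 12 of 16 fits that each left out 1 library and without the 4 libraries that stood apart (log2 fold change -0.45, adjusted p = 0.0841). The averaged call held in every alternative run, at adjusted p up to 0.0132.

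The mannose receptor gene mrc1a had levels of 21.76, 20.18, 21.07 and 18.17 CPM in WT control and 17.32, 18.31, 14.34 and 14.75 CPM in WT TCDD. In slincRosu3 it had 25.58, 30.13, 23.73 and 19.78 CPM in controls and 15.22, 21.43, 20.43 and 16.17 CPM with TCDD. The groups overlapped in both lines, through WT control 4 and slincRosu3 control 4. The averaged log2 fold change of mrc1a was -0.38 (SE 0.0979), with an adjusted p of 0.103 by edgeR. It passed without slincRosu3 control 4 (-0.43, adjusted p = 0.0367), without the 4 libraries that stood apart (-0.38, adjusted p = 0.0498) and by DESeq2 (-0.39, adjusted p = 0.0258).

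The other 3 scavenger genes did not pass the test of TCDD. The levels of stab1 were 13.5 ± 2.37, 10.6 ± 2.44, 14.1 ± 2.71 and 12.2 ± 0.937 CPM, with an averaged log2 fold change of -0.28 (SE 0.118, adjusted p = 0.545). Those of lyve1a were 2.16 ± 0.555, 1.59 ± 0.295, 3.31 ± 1.01 and 2.38 ± 0.0818 CPM, with -0.46 (SE 0.164, adjusted p = 0.393). Its paralog lyve1b stood at 5.29 ± 0.219, 5.34 ± 1.21, 5.4 ± 0.817 and 4.57 ± 0.419 CPM, with -0.11 (SE 0.114, adjusted p = 0.928). Relative to cdh5, the gene of the endothelial junction protein VE-cadherin, the count of stab2 was 0.585 to 0.766 in WT control and 0.417 to 0.54 in WT TCDD, and 0.478 to 0.626 and 0.375 to 0.463 in slincRosu3. The ratio of mrc1a to cdh5 was 0.451 to 0.526, 0.364 to 0.424, 0.429 to 0.52 and 0.295 to 0.43. These are ratios of counts not corrected for gene length, so they do not compare genes. As cdh5 was itself higher in slincRosu3 averaged over both treatments, they compare exposed and control libraries within a line, not the lines. The ranges of control and exposed libraries did not overlap within a line for stab2, while those of mrc1a overlapped in slincRosu3.

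The plvap genes encode the plasmalemma vesicle-associated protein, which builds the diaphragms of endothelial fenestrae and caveolae. Zebrafish has a pair of them, and they moved in opposite directions with TCDD. For plvapb (ENSDARG00000045003) the levels were 29.11, 27.55, 29.91 and 30.18 CPM in WT control and 23.7, 21.72, 20.52 and 23.41 CPM in WT TCDD. In slincRosu3 they were 32.86, 31.69, 30.94 and 38.88 CPM in controls and 23.51, 22.75, 26.55 and 21.87 CPM with TCDD. All 8 exposed libraries were below all 8 controls. The log2 fold change was -0.39 in WT (SE 0.0929, adjusted p = 0.13), -0.50 in slincRosu3 (SE 0.0926, 95% interval -0.70 to -0.31, adjusted p = 0.0159) and -0.44 averaged (SE 0.0656, adjusted p = 0.00104), by edgeR. The averaged value is a level 1.36-fold lower. Relative to cdh5, the count of plvapb was 0.674 to 0.748 in WT control and 0.462 to 0.673 in WT TCDD. In slincRosu3 this ratio was 0.547 to 0.843 in controls and 0.411 to 0.559 with TCDD, which overlapped. In slincRosu3 the call of plvapb was lost without control 1 (adjusted p = 0.0559), control 4 (0.0547), TCDD 1 (0.0686), TCDD 2 (0.0747) or TCDD 4 (0.0792).

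For plvapa (ENSDARG00000076972) the levels were 0.8975, 0.8366, 1.56 and 1.493 CPM in WT control and 2.814, 3.206, 2.417 and 2.834 CPM in WT TCDD. In slincRosu3 they were 1.01, 1.72, 2.526 and 1.157 CPM in controls and 3.461, 2.699, 4.227 and 3.599 CPM with TCDD. The groups were apart within each line, and across the lines slincRosu3 control 3 was above WT TCDD 3. These levels rest on 86, 213, 120 and 250 counts per group. The log2 fold change of plvapa was 1.23 in WT (SE 0.278, adjusted p = 0.0886), 1.12 in slincRosu3 (SE 0.268, adjusted p = 0.106) and 1.18 averaged (SE 0.193, adjusted p = 0.00343), by edgeR. The averaged value, a level 2.26-fold higher, was the largest change called with TCDD among the 45 genes. Without slincRosu3 control 3, edgeR called plvapa in WT (1.23, adjusted p = 0.0399) and in slincRosu3 (1.42, adjusted p = 0.0246).

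The count ratio of plvapa to plvapb combines both changes within a library. The ratio rests on the same libraries as the calls of both genes, so it is not independent support. It was 0.0304 to 0.0522 in WT control and 0.118 to 0.148 in WT TCDD. In slincRosu3 it was 0.0298 to 0.0816 in controls and 0.119 to 0.165 with TCDD. All 8 exposed libraries had a higher ratio than all 8 controls.

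**Figure D2:**
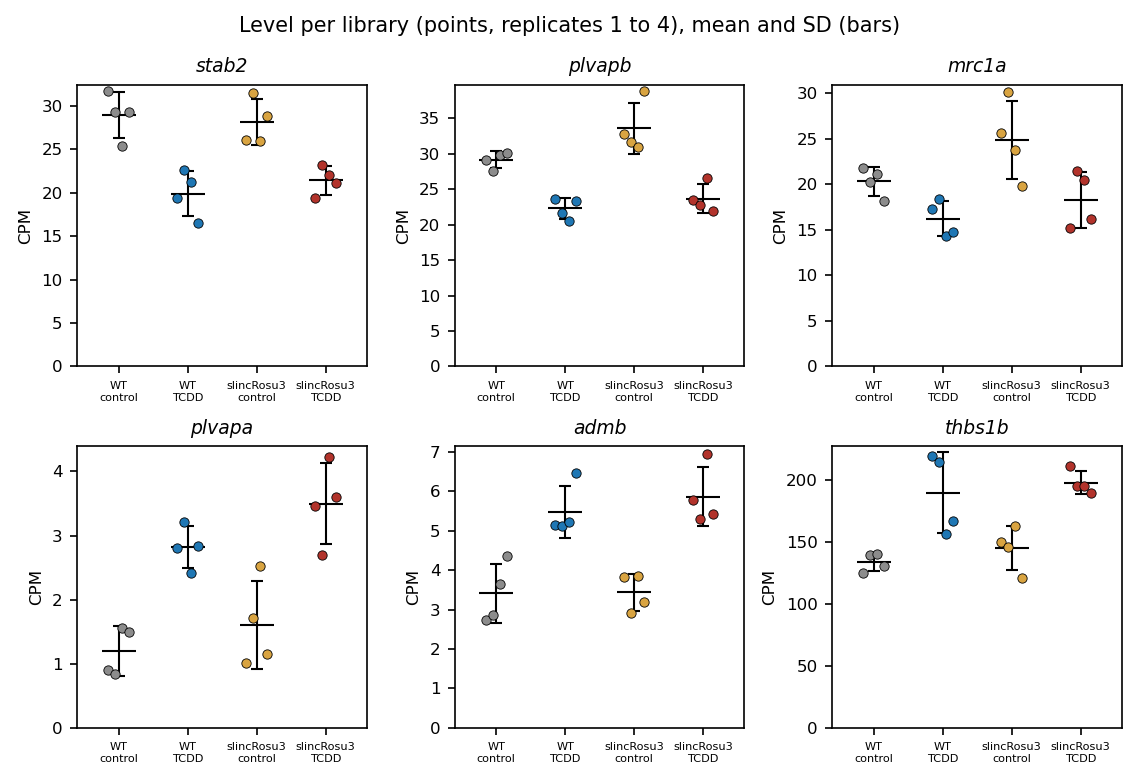
CPM per library (vertical axes, starting at 0) of 6 vessel genes in the 4 groups, with single libraries as points and the mean and SD (n = 4) as bars. The levels of stab2 and plvapb are lower in every exposed library than in every control, plvapa, admb and thbs1b are higher in every exposed library than in the controls of the same line, and mrc1a overlaps between the groups.

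The remaining 6 surface and junction genes were not called with TCDD. The levels of cdh5 were 41.5 ± 1.31, 42 ± 5.91, 52.9 ± 4.96 and 51.4 ± 2.72 CPM, with log2 fold changes of 0.02 in WT and -0.04 in slincRosu3. The averaged 95% interval for cdh5 ran from -0.16 to 0.13. The adhesion gene pecam1 stood at 19.9 ± 5.4, 21.4 ± 1.04, 19.4 ± 2.04 and 26 ± 4.27 CPM, with an averaged value of 0.26 (adjusted p = 0.531). WT control 4 had 28 CPM of pecam1 and the other WT controls 16.78 to 17.61 CPM, and without that library the averaged value was 0.37 (adjusted p = 0.049).

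Another adhesion gene, esama, stood at 7.72 ± 0.599, 9.08 ± 0.725, 7.26 ± 1.51 and 8.15 ± 1.03 CPM, with an averaged log2 fold change of 0.20 (adjusted p = 0.711). The lectin gene clec14a had 11 ± 2.8, 8.98 ± 1.37, 13.5 ± 1.52 and 10.7 ± 0.717 CPM, with -0.32 (adjusted p = 0.375), and its exposed and control libraries did not overlap in slincRosu3. The gene of the secreted endothelial protein Egfl7 had 7.06 ± 1.35, 7.39 ± 1.36, 6.3 ± 1.68 and 7.47 ± 0.618 CPM, with 0.16 (adjusted p = 0.9). None of these 3 passed the test. The sphingosine-1-phosphate receptor gene s1pr1 had 104 ± 14, 98.2 ± 14.4, 92.5 ± 13.6 and 95.9 ± 7.89 CPM, with -0.02 (adjusted p = 0.994).

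Adrenomedullin is a peptide ligand that in mammals acts on vessel tone and lymphatic growth. Of its genes, admb (ENSDARG00000069027) had 2.749, 2.876, 3.641 and 4.356 CPM in WT control and 5.141, 5.12, 5.21 and 6.456 CPM in WT TCDD. In slincRosu3 it had 3.829, 2.919, 3.842 and 3.182 CPM in controls and 5.788, 5.288, 6.936 and 5.427 CPM with TCDD. All 8 exposed libraries were above all 8 controls. The log2 fold change was 0.69 in WT (SE 0.168, adjusted p = 0.138), 0.77 in slincRosu3 (SE 0.168, adjusted p = 0.0606) and 0.73 averaged (SE 0.119, adjusted p = 0.00329), a level 1.66-fold higher, by edgeR. By DESeq2 admb was called in slincRosu3 (0.77, adjusted p = 0.00628) and in WT (0.68, adjusted p = 0.0329), and the authors' deposited table gives 0.69 in WT (adjusted p = 0.0312).

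Its paralog adma had 4.936, 5.385, 4.681 and 9.396 CPM in WT control and 8.659, 6.775, 5.049 and 5.459 CPM in WT TCDD. In slincRosu3 it had 5.584, 5.473, 5.578 and 6.884 CPM in controls and 11.64, 9.806, 10.13 and 10.69 CPM with TCDD. The groups were apart in slincRosu3 and overlapped in WT, where control 4 was the highest library. No TCDD comparison of adma passed edgeR's test over all libraries: the log2 fold change was 0.09 in WT (adjusted p = 0.961), 0.85 in slincRosu3 (SE 0.205, adjusted p = 0.111) and 0.47 averaged (adjusted p = 0.249). Without the 4 libraries that stood apart, adma was called with 0.63 in WT (adjusted p = 0.0462), 0.92 in slincRosu3 (adjusted p = 0.00137) and 0.78 averaged (adjusted p = 0.000297). In WT that setting drops control 4, the highest control, and TCDD 3 and 4, the lowest exposed libraries. In slincRosu3 adma was also called by DESeq2 (0.85, adjusted p = 0.0143) and with only its own groups fitted (0.85, adjusted p = 0.00763), and averaged without WT control 4 alone (0.61, adjusted p = 0.0121).

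Apelin and its receptors guide endothelial migration in zebrafish. The ligand gene apln stood at 76.4 ± 7.99, 80.1 ± 3.5, 78.9 ± 8.68 and 81.4 ± 3.96 CPM, with an averaged log2 fold change of 0.06 (adjusted p = 0.941). The receptor gene aplnra had 28.1 ± 3.38, 24.8 ± 6.15, 29.6 ± 3.07 and 27.3 ± 2.02 CPM, with -0.15 (adjusted p = 0.843). For the receptor gene aplnrb the levels were 23.22, 26.19, 28.56 and 29.74 CPM in WT control, 16.51, 15.77, 29.65 and 29.71 CPM in WT TCDD, 24.83, 22.26, 27.21 and 26.67 CPM in slincRosu3 control and 22.02, 20.33, 26.23 and 20.82 CPM in slincRosu3 TCDD. In WT TCDD the libraries that stood apart, 3 and 4, were at the level of controls and the other 2 libraries lay below every control. The averaged value of aplnrb was -0.20 (adjusted p = 0.803), and without the 4 libraries it was -0.42 (adjusted p = 0.0213). In WT the value of aplnrb was -0.23 (adjusted p = 0.802) over all libraries and -0.68 (adjusted p = 0.0212) without the 4.

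The matrix genes include thbs1b, which encodes a thrombospondin, a secreted glycoprotein of a family that in mammals restrains vessel growth, and hmcn1, which encodes the matrix protein hemicentin. Levels of thbs1b (ENSDARG00000010785) were 125, 139.4, 140.2 and 130.4 CPM in WT control and 219.9, 214.8, 156.5 and 167 CPM in WT TCDD. In slincRosu3 they were 150.3, 146.1, 163.2 and 120.9 CPM in controls and 211.7, 195.2, 195.5 and 189.6 CPM with TCDD. The groups were apart within each line. In WT TCDD the lower values were those of libraries 3 and 4. By edgeR the log2 fold change of thbs1b was 0.50 in WT (SE 0.115, adjusted p = 0.0925), 0.45 in slincRosu3 (SE 0.115, adjusted p = 0.155) and 0.48 averaged (SE 0.081, adjusted p = 0.00483), a level 1.39-fold higher. Without the 4 libraries that stood apart it was called in both lines, with 0.69 in WT (adjusted p = 0.00065) and 0.37 in slincRosu3 (adjusted p = 0.0307). In WT that setting keeps only TCDD 1 and 2, the higher exposed values. The other matrix gene, hmcn1, had 25.2 ± 1.95, 24.8 ± 1.49, 29 ± 4.24 and 26.9 ± 1.57 CPM, with an averaged value of -0.07 (adjusted p = 0.929).

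None of the 10 genes of VEGF ligands and receptors was called with TCDD in either line or averaged. The ligand gene vegfaa stood at 13.7 ± 3.38, 15.7 ± 1.73, 13.2 ± 1.64 and 16.7 ± 1.46 CPM, with an averaged log2 fold change of 0.27 (SE 0.106, adjusted p = 0.493). Without the 4 libraries that stood apart it was 0.45 (adjusted p = 0.0138). Its paralog vegfab had 16 ± 2.19, 15 ± 1.05, 16.2 ± 1.67 and 16.8 ± 0.547 CPM, with -0.01 (adjusted p = 0.994). The ligand of lymph vessel growth, vegfc, had 2.92 ± 0.711, 3.16 ± 0.432, 2.91 ± 0.281 and 3.25 ± 0.331 CPM, with 0.14 (adjusted p = 0.913).

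Among the receptors, kdrl, a principal VEGF receptor gene of zebrafish vessels, had 36.1 ± 2.62, 35.2 ± 1.6, 41.9 ± 5 and 42.2 ± 2.87 CPM, with an averaged TCDD interval from -0.15 to 0.12. The related kdr had 3.78 ± 1.24, 3.97 ± 1.33, 4.93 ± 1.91 and 4.45 ± 1.23 CPM, with an averaged log2 fold change of -0.04 (adjusted p = 0.994). The neuropilin genes encode co-receptors. Of these, nrp1a had 44.7 ± 14.3, 50 ± 12.2, 54.9 ± 16.5 and 49.7 ± 7.02 CPM, with 0.01 (adjusted p = 0.998). Its paralog nrp1b had 3.77 ± 1.75, 4.61 ± 1.49, 4.37 ± 2 and 4.48 ± 0.731 CPM, with 0.16 (adjusted p = 0.969).

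Arterial and venous genes were read separately. The arterial genes were efnb2a, an ephrin gene, and flt1, whose product binds VEGF and limits its signal. The level of efnb2a was 97.6 ± 4.12, 104 ± 11.3, 99.6 ± 2.93 and 99.9 ± 1.92 CPM, with an averaged log2 fold change of 0.05 (adjusted p = 0.945). That of flt1 was 7.02 ± 1.36, 9.1 ± 0.74, 7.73 ± 1.18 and 8.78 ± 0.608 CPM, with 0.28 (SE 0.1, adjusted p = 0.383), and without the 4 libraries that stood apart it was 0.40 (adjusted p = 0.0285). Neither gene was called over all 16 libraries.

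The venous genes were ephb4a, the receptor gene for that ephrin, flt4, the receptor gene for Vegfc, and nrp2a. Levels were 48.4 ± 3.96, 49.2 ± 2.39, 46.8 ± 3.67 and 47.4 ± 2.69 CPM for ephb4a, with an averaged log2 fold change of 0.02 (adjusted p = 0.986). For flt4 they were 19.5 ± 2.59, 19 ± 1.32, 16.7 ± 0.956 and 19.1 ± 1.35 CPM, with 0.08 (adjusted p = 0.913). For nrp2a they were 68.7 ± 5.03, 74.6 ± 8.57, 71.1 ± 6.06 and 76 ± 2.48 CPM, with 0.11 (adjusted p = 0.794). Thus 0 of 2 arterial and 0 of 3 venous genes passed edgeR's test, with medians of 0.16 and 0.08.

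None of the 5 genes of angiopoietins and Tie receptors was called with TCDD. For angpt2b, an angiopoietin 2 gene, levels were 2.749, 3.555, 3.537 and 3.484 CPM in WT control and 2.056, 1.448, 2.793 and 2.834 CPM in WT TCDD. In slincRosu3 they were 3.616, 4.274, 4.421 and 4.049 CPM in controls and 4.058, 2.644, 2.601 and 3.599 CPM with TCDD. Groups overlapped in both lines, and the averaged value was -0.44 (SE 0.147, adjusted p = 0.304). Its paralog angpt2a, at 0.672 ± 0.174, 0.488 ± 0.167, 0.669 ± 0.448 and 0.925 ± 0.162 CPM, rested on 37 to 66 counts per group, with log2 fold changes of -0.46 in WT and 0.47 in slincRosu3 (adjusted p = 0.855 and 0.999). For angpt1, tie1 and tek the averaged values were -0.07, 0.12 and -0.00 (adjusted p from 0.799 to 0.999).

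None of the 8 transcription factor genes was called with TCDD. The nearest to the threshold was etv2, the early master regulator of endothelial fate. It had 8.526, 7.581, 7.49 and 9.769 CPM in WT control, 8.767, 9.309, 10.37 and 10.92 CPM in WT TCDD, 8.083, 8.391, 8.631 and 8.793 CPM in slincRosu3 control and 13.78, 10.58, 11.05 and 11.57 CPM in slincRosu3 TCDD. The groups were apart in slincRosu3 and overlapped in WT through WT control 4. The log2 fold change of etv2 was 0.24 in WT (adjusted p = 0.646), 0.47 in slincRosu3 (SE 0.119, adjusted p = 0.149) and 0.36 averaged (SE 0.0846, adjusted p = 0.0675) by edgeR. It was called by DESeq2 (0.35 averaged, adjusted p = 0.0141) and without WT control 4 (0.40, adjusted p = 0.0218).

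Of the SoxF genes, sox17 was the least abundant in counts, with 31, 35, 21 and 59 per group. Its levels were 0.8975, 0.3137, 0.2601 and 0.2489 CPM in WT control, 0.6494, 0.2586, 0.4297 and 0.5249 CPM in WT TCDD, 0.4786, 0.2606, 0.2105 and 0.1735 CPM in slincRosu3 control and 0.5371, 0.8263, 0.8128 and 1.108 CPM in slincRosu3 TCDD. The groups were apart in slincRosu3, with a log2 fold change of 1.52 (SE 0.445, adjusted p = 0.326) that did not pass the test, and overlapped in WT (0.11, adjusted p = 0.981). The related sox7 had 22.3 ± 4.51, 20.8 ± 2.18, 21.9 ± 3.28 and 19.2 ± 0.573 CPM, with an averaged value of -0.14 (adjusted p = 0.812). Those of sox18 were 14.8 ± 3.04, 12.4 ± 3.27, 12.7 ± 3.86 and 13.5 ± 1.4 CPM, with -0.08 (adjusted p = 0.97).

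The blood and endothelial regulator gene tal1 had 23.6 ± 2.27, 22.4 ± 3.25, 24.6 ± 2.45 and 22.2 ± 1.32 CPM, with an averaged log2 fold change of -0.11 (adjusted p = 0.86). The ETS factor genes fli1a and erg had 46.7 ± 1.68, 49.8 ± 3.57, 44.9 ± 4.02 and 42.4 ± 1.63 CPM, with 0.01 (adjusted p = 0.995), and 3.48 ± 0.862, 4.25 ± 0.662, 3.69 ± 0.943 and 3.66 ± 0.517 CPM, with 0.14 (adjusted p = 0.928). The lymphatic regulator gene prox1a, also active in other tissues, had 34.9 ± 8.83, 36.4 ± 5.79, 43.8 ± 6.69 and 41.1 ± 5.45 CPM, with -0.01 (adjusted p = 0.994). None of these 4 genes passed the test.

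A list of 34 other vessel genes, all measured, was read beside the 45. Of these, 1 rose and 0 fell with TCDD in WT, 2 rose and 0 fell in slincRosu3, and 2 rose and 0 fell averaged, with medians of -0.03, 0.05 and 0.02. The aquaporin gene aqp8a.1, which encodes a water channel of endothelial cells, had 8.694, 10.09, 9.675 and 12.57 CPM in WT control and 16.67, 17.22, 17.83 and 20.16 CPM in WT TCDD. In slincRosu3 it had 11.43, 9.799, 11.84 and 12.96 CPM in controls and 20.47, 16.14, 18.8 and 17.5 CPM with TCDD. It was higher in every exposed library than in any control, with a log2 fold change of 0.74 averaged (SE 0.0883, adjusted p = 9.15e-05 by edgeR). The growth factor gene vegfd rose in slincRosu3 (0.91, SE 0.182, adjusted p = 0.0306) and averaged (0.65, SE 0.129, adjusted p = 0.0186).

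Markers of other cell types were read beside the changes with TCDD, and their part in the results was not tested. Of 8 macrophage and neutrophil genes, lyz, the lysozyme gene, fell in the averaged comparison (-0.93, SE 0.164, adjusted p = 0.00651), and the other 7 were not called. The summed level of the 8 genes was 56.49 to 61.1, 48.22 to 59.79, 64.83 to 72.03 and 58.9 to 64.01 CPM. None of 9 mural cell genes, 8 red blood cell genes or 4 heart muscle genes was called, and no marker was at 0 in any group. The summed level of the 45 vessel genes was 1083 to 1188, 1129 to 1241, 1151 to 1254 and 1227 to 1256 CPM. This sum includes thbs1b, itself called with TCDD, at means of 134, 190, 145 and 198 CPM, so it is not independent of the genes called.

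Whether the line alters the response to TCDD was tested as the difference of the TCDD effects. No vessel gene passed, and 0% of all genes did, by edgeR, and DESeq2 also called 0. At an unadjusted p under 0.05 there were 2 vessel genes (4.44%), adma and sox17, against 4.3% of all genes. The difference was 0.75 for adma (95% interval 0.14 to 1.36) and 1.41 for sox17 (95% interval 0.07 to 2.75), both with an adjusted p of 0.996. For the 5 genes called in the averaged comparison, the difference was 0.14 for stab2 (95% interval -0.18 to 0.47), -0.12 for plvapb (-0.39 to 0.16), -0.12 for plvapa (-0.92 to 0.69), 0.08 for admb (-0.42 to 0.58) and -0.05 for thbs1b (-0.40 to 0.29). The call of stab2 in WT alone and of plvapb in slincRosu3 alone was thus not shown to differ between the lines.

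The next question was how the slincRosu3 line differed from WT. The gene angpt1, which encodes angiopoietin 1, the ligand that activates the Tie receptor Tek and steadies vessels, was lower in slincRosu3 with and without TCDD. Averaged over both treatments, cdh5, kdrl and the hyaluronan receptor gene lyve1a were higher in slincRosu3. Thus 1 of 45 vessel genes was called in controls, where 1.54% of all genes were called and 0.885% were lower, and 1 with TCDD, where 1.86% were called and 0.976% were lower. In the averaged comparison 3 were higher and 1 lower, against 5.45% of all genes called, 2.65% higher and 2.8% lower. At each single treatment, 1 of 45 is near the share of all genes. Among the averaged calls, kdrl was lost in 12 and lyve1a in 10 of 16 fits that each left out 1 library. Libraries of the lines did not overlap for 4 higher and 2 lower vessel genes without TCDD, against 3.11% and 3.16% of all genes. With TCDD this was so for 6 higher and 2 lower, against 5.36% and 4.9% of all genes. The median log2 difference of the 45 genes was 0.03 in controls, 0.08 with TCDD and 0.08 averaged, against -0.01 for all genes in each.

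**Figure D3:**
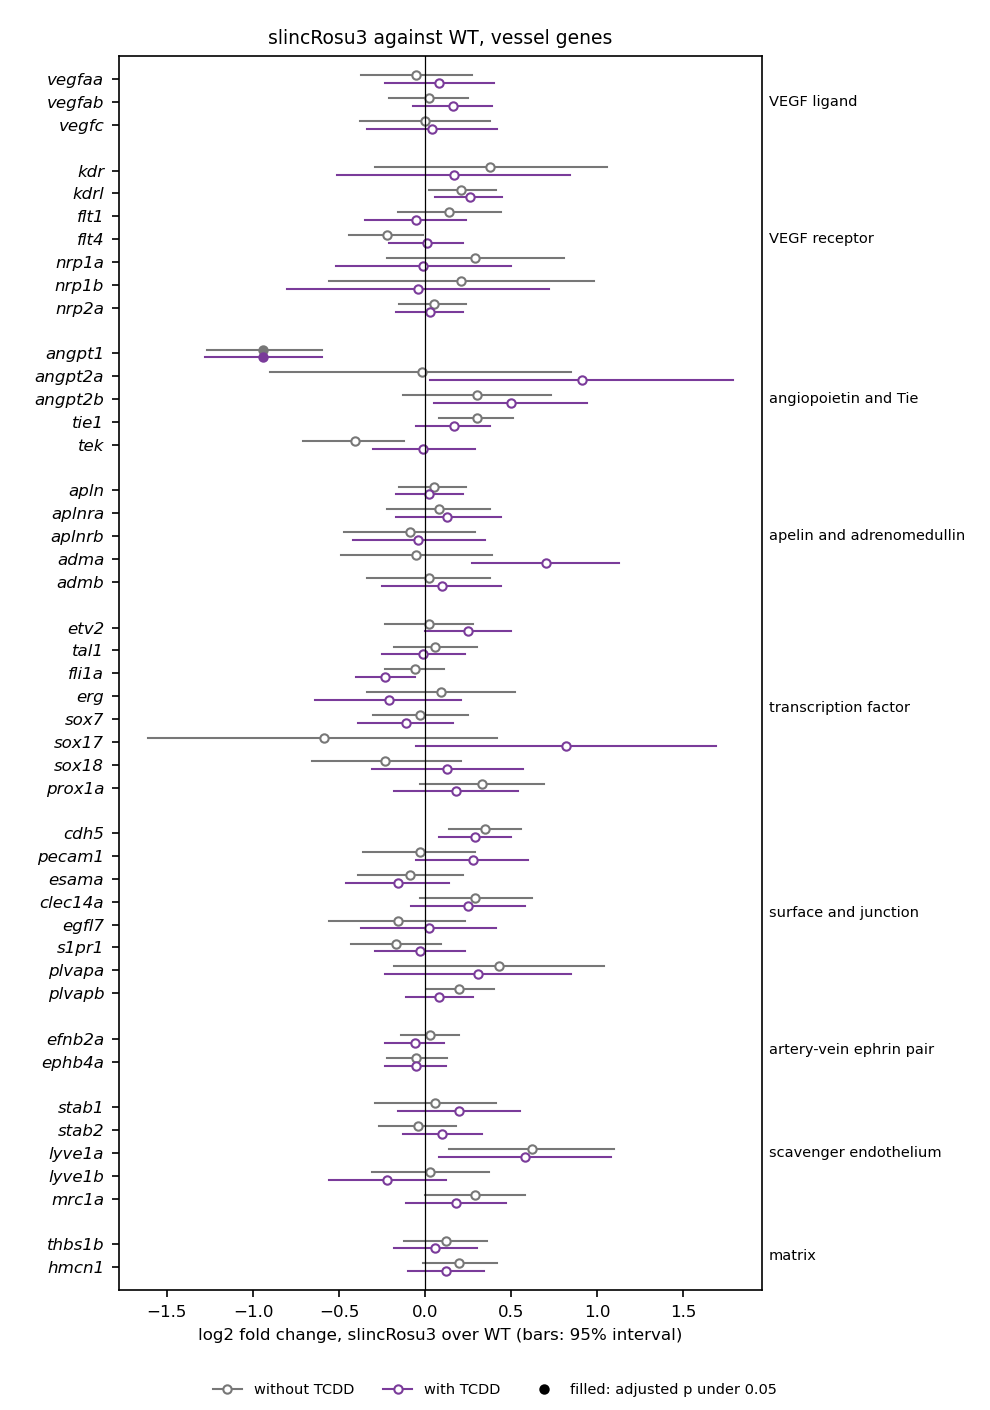
Log2 fold change of slincRosu3 over WT (horizontal axis) for each of the 45 vessel genes, grouped by role, without TCDD (grey) and with TCDD (purple). Points are estimates of the edgeR fit, bars are 95% intervals and filled points mark an adjusted p under 0.05. Both filled points belong to angpt1, at -0.94, and most other points lie within 0.5 of 0.

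The levels of angpt1 (ENSDARG00000030364) were 8.246, 7.738, 7.23 and 7.467 CPM in WT control and 6.927, 7.085, 6.714 and 8.451 CPM in WT TCDD. In slincRosu3 they were 4.041, 5.056, 3.315 and 3.587 CPM in controls and 3.401, 5.013, 3.414 and 3.378 CPM with TCDD. All 8 slincRosu3 libraries were below all 8 WT libraries. Means were 7.67 ± 0.436, 7.29 ± 0.786, 4 ± 0.765 and 3.8 ± 0.808 CPM (SD, n = 4). By edgeR the log2 fold change was -0.94 without TCDD (SE 0.16, adjusted p = 0.005), -0.94 with TCDD (SE 0.161, adjusted p = 0.00475) and -0.94 averaged (SE 0.113, 95% interval -1.18 to -0.70, adjusted p = 6.99e-05), a level 1.92-fold lower. It was called in all 3 comparisons under every alternative run. The authors' deposited table gives -0.94 (adjusted p = 1.48e-05) in controls and -0.93 (adjusted p = 2.55e-05) with TCDD. The log2 fold change of angpt1 with TCDD was -0.07 in each line, with intervals from -0.40 to 0.25 and from -0.42 to 0.27.

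The Tie receptor genes did not pass edgeR's test over all libraries. For tek, which encodes the receptor of angiopoietins, the levels were 7.068, 6.431, 7.49 and 9.769 CPM in WT control and 5.796, 5.212, 6.052 and 6.016 CPM in slincRosu3 control, without overlap and with a log2 difference of -0.41 (SE 0.139, adjusted p = 0.206). With TCDD they were 6.061, 5.896, 7.466 and 7.244 CPM in WT and 7.101, 6.115, 7.044 and 6.257 CPM in slincRosu3, which overlapped (-0.01, adjusted p = 0.99). For tie1, an orphan receptor gene of the same family, they were 17.5, 17.62, 18.93 and 18.36 CPM in WT control and 22.23, 24.13, 23.42 and 19.15 CPM in slincRosu3 control, again without overlap (0.30, SE 0.102, adjusted p = 0.215). With TCDD tie1 had 20.78, 23.84, 18.8 and 18.69 CPM in WT and 21.42, 24.73, 24.55 and 21.49 CPM in slincRosu3. These overlapped, and the averaged difference of tie1 was 0.23 (SE 0.072, adjusted p = 0.0722). It passed by DESeq2 (0.23, adjusted p = 0.041), without WT TCDD 2 (0.27, adjusted p = 0.03) and without slincRosu3 control 4 (0.26, adjusted p = 0.0339).

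The junction gene cdh5 (ENSDARG00000075549) had 41.4, 40.89, 43.33 and 40.32 CPM in WT control and 53.12, 57.96, 54.31 and 46.11 CPM in slincRosu3 control. With TCDD it had 46.59, 47.01, 39.42 and 34.8 CPM in WT and 51.5, 53.32, 47.47 and 53.16 CPM in slincRosu3. The lines were apart at each treatment and overlapped across treatments. By edgeR the difference was 0.35 without TCDD (SE 0.0986, adjusted p = 0.0997), 0.29 with TCDD (adjusted p = 0.161) and 0.32 averaged (SE 0.0697, adjusted p = 0.00963), a level 1.25-fold higher. The averaged call held in every alternative run, at adjusted p up to 0.0294. Without TCDD, cdh5 was also called without the 4 libraries that stood apart (0.40, adjusted p = 0.0108) and by DESeq2 (0.35, adjusted p = 0.0488).

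The receptor gene kdrl (ENSDARG00000105215) had 35.11, 40, 35.32 and 34.16 CPM in WT control, 33.71, 37.49, 34.8 and 34.96 CPM in WT TCDD, 42.33, 47.74, 42.1 and 35.52 CPM in slincRosu3 control and 45.83, 42.91, 39.18 and 40.81 CPM in slincRosu3 TCDD. The lines were apart with TCDD, and without it slincRosu3 control 4 lay among the WT libraries. The averaged difference was 0.24 (SE 0.0653, adjusted p = 0.0418), a level 1.18-fold higher. It was lost in 12 of 16 fits that each left out 1 library, with adjusted p up to 0.0963.

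The hyaluronan receptor gene lyve1a (ENSDARG00000075833) had 2.749, 1.412, 2.289 and 2.178 CPM in WT control, 1.407, 1.707, 1.289 and 1.942 CPM in WT TCDD, 3.084, 4.795, 2.579 and 2.777 CPM in slincRosu3 control and 2.387, 2.314, 2.493 and 2.326 CPM in slincRosu3 TCDD. The lines were apart with TCDD and overlapped in controls. The averaged difference was 0.60 (SE 0.164, adjusted p = 0.0391), a level 1.52-fold higher. It was lost in 10 of 16 fits that each left out 1 library, with adjusted p up to 0.081, and without the 4 libraries that stood apart (adjusted p = 0.0638).

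**Figure D4:**
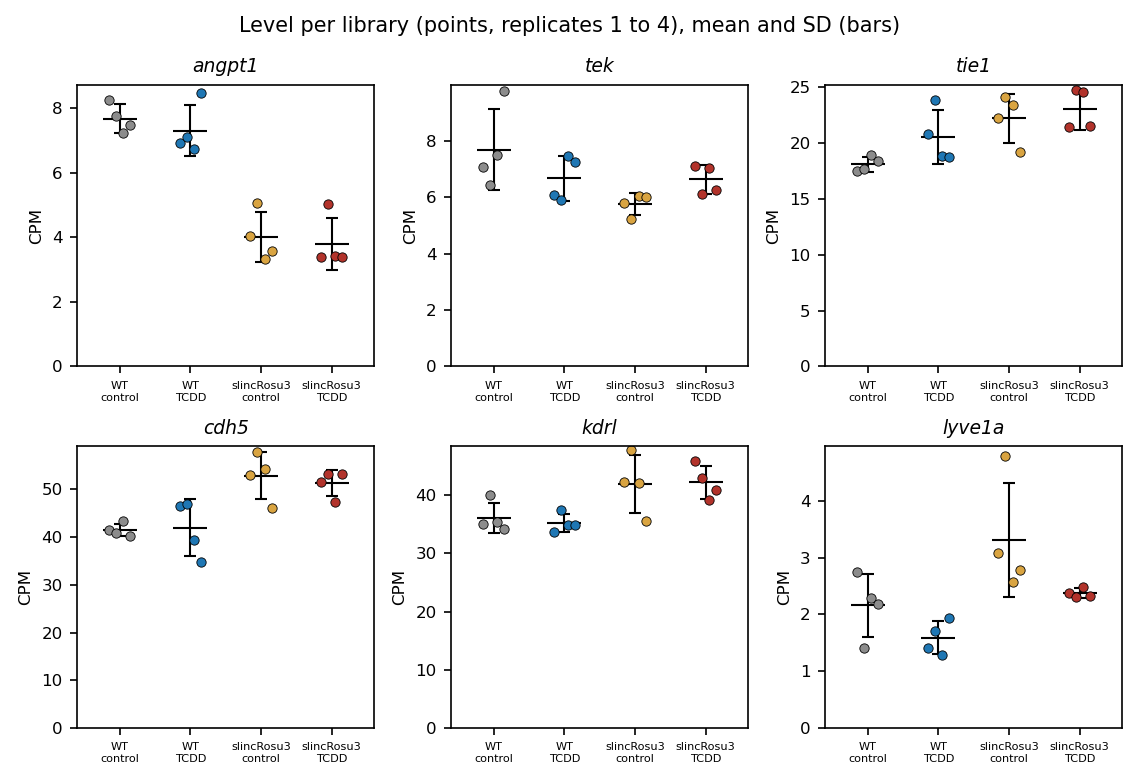
CPM per library (vertical axes, starting at 0) of 6 vessel genes in the 4 groups, with single libraries as points and the mean and SD (n = 4) as bars. All slincRosu3 libraries are below all WT libraries for angpt1, while cdh5, kdrl and lyve1a are higher on average in slincRosu3 and overlap with WT over the 16 libraries.

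Markers of other cell types also differed between the lines, and their part in these results was not tested. In the averaged comparison the macrophage genes mpeg1.1 (0.58, adjusted p = 0.00251), marco (0.69, adjusted p = 0.0123) and spi1b (0.40, adjusted p = 0.0447) were higher in slincRosu3 and lyz was lower (-0.67, adjusted p = 0.0216), which makes 4 of 8. The other genes, csf1ra, lcp1, coro1a and mpx, were not called, and 5.45% of all genes were called in this comparison. The summed level of the 8 genes was 56.49 to 61.1 CPM in WT control and 64.83 to 72.03 CPM in slincRosu3 control, and 48.22 to 59.79 and 58.9 to 64.01 CPM with TCDD. In WT control mpx, lcp1 and coro1a had means of 17.6, 11.7 and 10.9 CPM, so these uncalled genes made up most of the sum there. Of 9 mural cell genes, pdgfrb, a receptor gene of pericytes, was higher in slincRosu3 (0.44, SE 0.103, adjusted p = 0.0153), where control 4 had 20.42 CPM and the other slincRosu3 libraries had 25.12 to 33.42 CPM. The summed level of the 9 genes was 324.5 to 449.8, 316.7 to 418.5, 311.2 to 412.1 and 291.6 to 374.1 CPM, so it overlapped between all groups. Most of this sum came from notch3, with means of 286, 233, 226 and 231 CPM, so the overlap says little of the other mural genes. None of the 34 other vessel genes was called between the lines, and their median averaged difference was 0.07. Of 5 AHR target genes, 0 were called higher in slincRosu3 without TCDD, 3 with TCDD and 2 averaged. Of all genes, 0.65%, 0.885% and 2.65% were called higher in these comparisons. The part of the AHR targets in the line differences was not tested.

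The remaining vessel genes were not called between the lines over all libraries by edgeR. The averaged differences ranged from 0.02 to 0.09 for the VEGF ligands, from -0.11 to 0.27 for the VEGF receptors, kdrl included, and from -0.14 to 0.25 for the transcription factors. They ranged from -0.06 to 0.33 for apelin and adrenomedullin, where the upper end, adma, reached 0.70 with TCDD (SE 0.203, adjusted p = 0.0925) and -0.05 without it. In the authors' deposited table the difference of adma with TCDD was 0.71 (adjusted p = 0.0336). For aplnra the difference was 0.13 with TCDD (adjusted p = 0.738) and 0.11 averaged (adjusted p = 0.641), and without the 4 libraries that stood apart it was called, with 0.44 (adjusted p = 0.0346) and 0.27 (adjusted p = 0.0329). Without WT control 4 alone, the averaged differences of adma (0.47, adjusted p = 0.0231) and clec14a (0.36, adjusted p = 0.0313) passed the test. The arterial genes lay between -0.01 and 0.04 and the venous genes between -0.11 and 0.04. For angpt2b the averaged difference was 0.40 (SE 0.147, adjusted p = 0.138), and without the 4 libraries that stood apart it was 0.60 (adjusted p = 0.0411). For the other averaged differences of the scavenger genes, mrc1a had 0.23 (adjusted p = 0.195), stab1 0.13, stab2 0.03 and lyve1b -0.10.

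Several vessel genes were lower or higher in the libraries that stood apart. The co-receptor gene nrp1a had 37.58, 58.93, 54.04 and 28.25 CPM in WT control and 52.6, 66.25, 40.28 and 41.05 CPM in WT TCDD. In slincRosu3 it had 62.11, 62.75, 64.52 and 30.14 CPM in controls and 44.46, 60.05, 46.65 and 47.73 CPM with TCDD. Its lowest value in each control group was that of replicate 4, a library that stood apart. The receptor gene kdr ran from 2.14 to 6.463 CPM in slincRosu3 control, again with the lowest value in replicate 4. In WT control the lowest value of kdr was that of replicate 1, at 2.524 CPM, with 2.987 CPM in replicate 4. In contrast sox7 was highest in the controls numbered 4, at 29.06 CPM in WT and 26.73 CPM in slincRosu3, where the other controls lay between 19.69 and 21 CPM. What the component stands for was not tested. Without the 4 libraries the averaged TCDD comparison called 10 vessel genes, the 5 called over all libraries together with adma, aplnrb, flt1, mrc1a and vegfaa. Over all genes, that setting called 486 in place of 168.

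**Figure D5:**
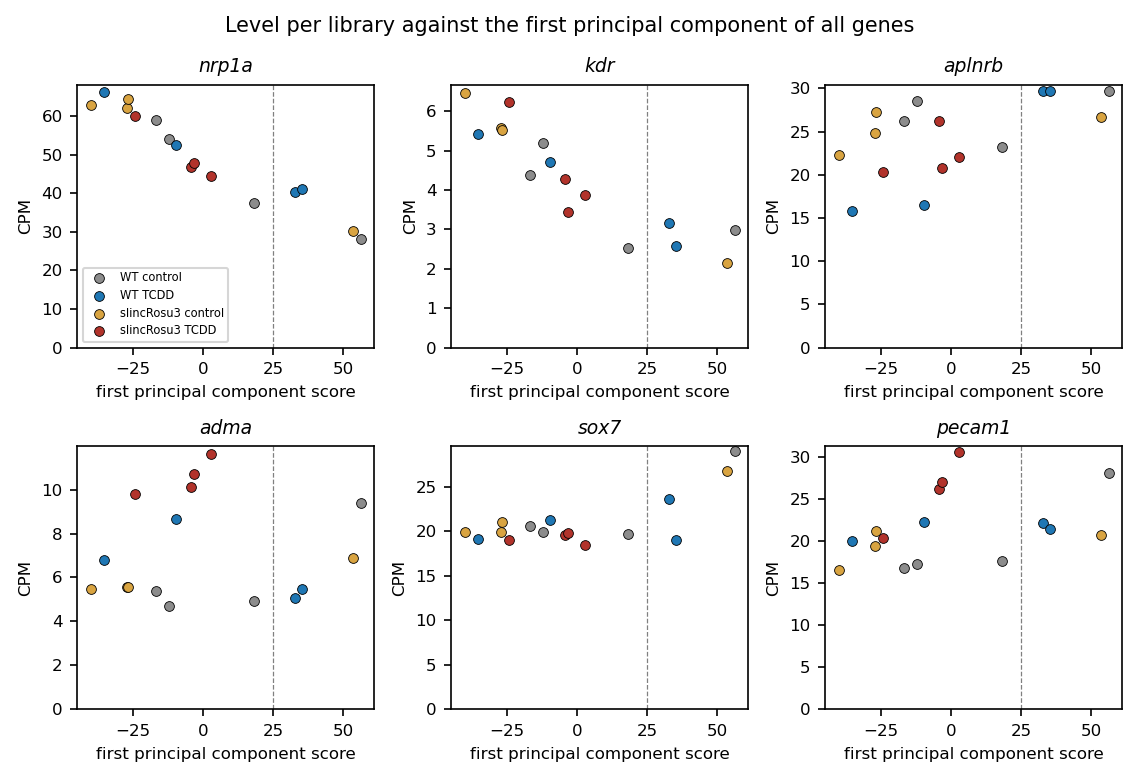
CPM of 6 vessel genes (vertical axes, starting at 0) against the score of each library on the first principal component of all genes (horizontal axis, no unit), with points coloured by group. The 4 libraries right of the dashed line are WT control 4, slincRosu3 control 4, WT TCDD 4 and WT TCDD 3. There nrp1a is below the other libraries of the same group, and so is kdr except in WT control, where replicate 1 is lowest. In the controls numbered 4, sox7 is high.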

How the data were processed

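The 45 genes, their roles and the marker lists were chosen with earlier results of these data known. The main deposited table holds raw counts per gene for 16 libraries, each the sum of 2 read files, per the file headers; if these are mates, 1 fragment may count up to 2 times. By its deposited name, genes without counts and a percentile of genes were already removed from this table. Shares of all genes refer to those that remained. In 1 column, slincRosu3 control 2, 1 value is not whole, so that column was taken as estimated counts deposited by the authors and rounded. The submitters' processing notes name HISAT2, STAR, DESeq2 and the build GRCz11. The sources used here do not name the counter, the annotation or the strand setting, so reads of overlapping genes cannot be told apart. A table of the authors' comparisons holds their log2 fold changes and their adjusted p-values, and was used only where named. Another 94 columns of per-sample values were not used, and the 8 BigD samples of the labels were not analysed here.

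Counts were tested with edgeR 4.0.16 in R 4.3.3: TMM scaling, filterByExpr by group, 4 groups fitted together (12 residual degrees of freedom), two-sided quasi-likelihood F tests, Benjamini-Hochberg adjustment over 20907 genes and a threshold of 0.05. The averaged comparisons take the mean of the 2 contrasts in the same fit and reuse their libraries. CPM are TMM-scaled, with mean ± SD over 4 libraries, and no gene lengths were used, so levels were not compared between genes. Total counts of 17275522 to 20100736 per library set the precision, and counting error alone is the least error of a value. No pair of libraries within a group was identical. Every vessel gene is named, and those called, or with an unadjusted p under 0.01, have each library's value. Alternatives were DESeq2 size factors, DESeq2 1.42.0, no further filter, only the groups compared, a replicate block, each library left out, and the 4 libraries that stood apart left out. Of the marker lists, symbols without a match in the table were left out.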

Additional observations from a re-analysis of the deposited data

Results flagged for a closer look

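Within a group of 4 libraries, 19 of 180 combinations of gene and group had 1 library far from the others, with a gap to the nearest that passed Dixon's critical value, where chance gives about 5%. In 11 of the 19 the library was one that stood apart on the first principal component. In WT control 4, adma had 9.396 CPM (others 4.681 to 5.385), sox7 29.06 (19.69 to 20.6) and pecam1 28 (16.78 to 17.61). In slincRosu3 control 4, flt1 had 9.487 CPM (6.966 to 7.245), nrp1a 30.14 (62.11 to 64.52), adma 6.884 (5.473 to 5.584), erg 5.091 (3.023 to 3.368), sox7 26.73 (19.86 to 21) and s1pr1 112.9 (84.98 to 87.25). In WT TCDD 4, apln had 74.85 CPM (81.58 to 82.23) and admb 6.456 (5.12 to 5.21).

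The other cases lay in libraries that did not stand apart. In slincRosu3 TCDD 2, vegfc had 2.754 CPM (3.401 to 3.433), angpt1 5.013 (3.378 to 3.414) and aplnra 24.24 (28.11 to 28.39). In WT control 1, angpt2b had 2.749 CPM (3.484 to 3.555) and sox17 0.8975 (0.2489 to 0.3137). The level of prox1a in WT TCDD 2 was 44.99 CPM (32.7 to 34.47), that of ephb4a in WT TCDD 1 was 45.62 CPM (49.95 to 50.65) and that of efnb2a in slincRosu3 control 3 was 103.9 CPM (97.88 to 98.58).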

How the results depend on the processing

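No call of a vessel gene reversed its direction under the alternatives run. Vessel genes called numbered, with TCDD in WT, 1 over all libraries, 0 with only the WT groups fitted, 3 without the 4 libraries that stood apart and 5 by DESeq2. With TCDD in slincRosu3 they numbered 1, and 2 with only its groups, 3 without the 4 libraries and 6 by DESeq2. In the averaged TCDD comparison they numbered 5, and 10 without the 4 libraries. Between the lines they numbered 1 in controls and 1 with TCDD, and 2 in each without the 4 libraries and by DESeq2. All genes called with TCDD in WT numbered 68, and 26, 327 and 147 under those settings, in slincRosu3 80, and 170 and 160 without the 4 libraries and by DESeq2, and averaged 168, and 486 and 268. Between the lines they numbered 321 in controls, and 149, 604 and 506, and 389 with TCDD, and 697 and 678. The difference of TCDD effects went from 0 to 20 genes without the 4 libraries, none a vessel gene. The cause of these changes was not tested, and some of the settings also used fewer libraries.

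Leaving out 1 library gave 0 to 1, 0 to 3 and 5 to 8 vessel genes called with TCDD in WT, in slincRosu3 and averaged, and 46 to 76, 46 to 102 and 112 to 201 of all genes. Between the lines it gave 1 to 1 in controls, 1 to 2 with TCDD and 2 to 5 averaged, and 176 to 342, 175 to 491 and 857 to 1371 of all genes, and 0 to 0 for the difference. Replicate numbers are shared by the groups. Same-numbered libraries correlated from -0.28 to 0.68, with 16 of 24 pairs over 0.1, and libraries of other numbers from -0.63 to 0.38. Of 16 libraries, 12 correlated best with their own number. Not every same-numbered pair correlated, so the main tests did not block on the number. Whether the numbers mark a shared batch or pairing was not tested. With the number as a block, the vessel genes called with TCDD numbered 1 in WT, 2 in slincRosu3 (with admb added, 0.76, adjusted p = 0.046) and 6 averaged (with mrc1a added, -0.38, adjusted p = 0.0333), and 3 between the lines averaged, where lyve1a was lost (adjusted p = 0.0525). All genes called then numbered 80, 96, 188 and 1411, against 68, 80, 168 and 1140 without it. Low counts limit sox17, angpt2a and plvapa.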
